A study of Rattus norvegicus with 12 samples.

Results

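The genes described here work in the endoplasmic reticulum (ER), the compartment in which secreted and membrane proteins are made. They comprise chaperones, disulfide isomerases and oxidases, stress sensors, degradation factors and subunits of the translocation channel and its neighbours. The list holds 35 symbols, chosen by name with earlier results of these data known. A row among the 30045 symbols of the count table was found for 34 of them. Of these, 31 were found by symbol and 3 by an older synonym (Ero1a, Ero1b and Selenos), and Derl2 was not analysed here. All 34 passed the filter on low counts.

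Lung RNA of 12 male Fischer 344 rats (F344/DuCrl, an inbred strain), bought at 3 months of age, was sequenced, 1 library per rat. The surfactant gene Sftpc and the endothelial gene Cdh5, defining genes of lung cell types, averaged 10229.7 ± 1094 and 764 ± 50.1 TMM-scaled CPM, counts scaled to 1000000 per library, in the air rats (SD, n = 6). In the air group, 6 rats breathed air alone. In the other group, 6 rats inhaled crystalline nanocellulose (CNC), rod-shaped crystals prepared from cellulose, in a whole-body chamber at 20 mg/m3 for 6 hours a day on 5 days a week, with 14 exposure days in all. Lungs of both groups were collected 1 day after the last exposure, and no allele or other agent is named in the labels. The comparison asks how the lung responds to repeated inhalation of CNC.

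Newly made proteins enter the ER through the Sec61 channel, are folded by chaperones such as BiP (Hspa5), and are joined by disulfide bonds that isomerases form and rearrange. Proteins that stay misfolded are pulled back into the cytosol and degraded, which is called ER-associated degradation. When folding falls behind, the sensors Atf6, Ern1 (IRE1) and Eif2ak3 (PERK) start the unfolded protein response, in which Atf6 and spliced Xbp1 switch on chaperone and degradation genes. In lung, alveolar type 2 cells, which secrete surfactant proteins, and antibody-secreting plasma cells are known for a large secretory load.

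The target genes of Atf6 and Xbp1 are known for a shared promoter sequence, the ER stress response element (ERSE), and its sites are shown first. The members include chaperone and degradation genes of that kind, so the share with a site follows in part from their choice. RefSeq promoter windows of 300 bases (250 before and 50 from the annotated start on, build GRCr8) were matched by symbol for 27 of the 35 genes. The ERSE, searched on either strand as CCAAT and CCACG with any 9 bases between them, occurred in 8 of the 27 (29.6%) and in 22 of all 33469 windows (0.0657%). A shorter form, ERSE-II, searched on either strand as ATTGG and CCACG with any 1 base between them, occurred in 3 of the 27 (11.1%) and in 17 of all windows (0.0508%). The core of another element of the response (UPRE), TGACGTGG, occurred in 1 of the 27, Hyou1, where it overlapped an ERSE-II, and in 0.595% of all windows. The sites follow, written in the direction of the motif with the fixed letters in capitals, ERSE first and then ERSE-II.
Hspa5: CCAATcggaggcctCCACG
Hsp90b1, far site: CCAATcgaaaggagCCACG
Hsp90b1, near site: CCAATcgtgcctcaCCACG
Dnajc3: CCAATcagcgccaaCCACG
Creld2: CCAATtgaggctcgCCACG
Calr: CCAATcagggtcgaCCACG
Canx: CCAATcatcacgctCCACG
Ero1b: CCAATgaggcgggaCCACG
Xbp1: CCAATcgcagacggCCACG
Hyou1, far site: ATTGGcCCACG
Hyou1, near site: ATTGGgCCACG
Dnajb11: ATTGGcCCACG
Herpud1: ATTGGgCCACG

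Counted from the annotated start, with the base before it as -1, the Hspa5 site spans -43 to -25 and the Xbp1 site -65 to -47. The Calr site lies at -232 to -214, and the Dnajb11 ERSE-II at -10 to 1 runs over the start itself. Whole windows are printed for 4 genes, from 5′ to 3′ on the strand of the gene, with matches to the ERSE in capitals (a match on the opposite strand appears as its reverse complement). They are Hspa5 (chr3:38452766-38453065, + strand), Hsp90b1 (chr7:23012244-23012543, - strand), Calr (chr19:40213117-40213416, + strand) and Sdf2l1 (chr11:97376628-97376927, + strand), all in GRCr8. Hspa5 and Calr are a called pair with an ERSE, Hsp90b1 carries 2 matches and was not called, and Sdf2l1, the member with the largest rise, holds neither ERSE form in this window.
Hspa5: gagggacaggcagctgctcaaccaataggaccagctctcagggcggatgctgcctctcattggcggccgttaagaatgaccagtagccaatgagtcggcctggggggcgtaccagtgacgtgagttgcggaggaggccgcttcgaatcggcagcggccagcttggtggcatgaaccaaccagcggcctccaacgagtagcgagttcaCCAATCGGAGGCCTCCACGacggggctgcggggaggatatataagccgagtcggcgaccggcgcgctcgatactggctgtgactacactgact
Hsp90b1: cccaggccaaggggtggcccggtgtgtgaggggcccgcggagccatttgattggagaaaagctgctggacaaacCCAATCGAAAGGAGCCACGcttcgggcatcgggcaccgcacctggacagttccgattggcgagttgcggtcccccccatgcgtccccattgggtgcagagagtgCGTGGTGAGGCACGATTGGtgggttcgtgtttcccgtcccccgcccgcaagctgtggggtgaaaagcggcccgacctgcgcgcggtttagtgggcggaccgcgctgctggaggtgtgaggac
Calr: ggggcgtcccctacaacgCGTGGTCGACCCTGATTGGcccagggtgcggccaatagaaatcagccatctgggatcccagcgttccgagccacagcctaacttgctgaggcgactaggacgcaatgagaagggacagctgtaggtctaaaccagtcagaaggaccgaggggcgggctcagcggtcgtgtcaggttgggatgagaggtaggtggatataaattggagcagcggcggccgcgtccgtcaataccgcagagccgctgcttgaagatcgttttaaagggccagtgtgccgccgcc
Sdf2l1: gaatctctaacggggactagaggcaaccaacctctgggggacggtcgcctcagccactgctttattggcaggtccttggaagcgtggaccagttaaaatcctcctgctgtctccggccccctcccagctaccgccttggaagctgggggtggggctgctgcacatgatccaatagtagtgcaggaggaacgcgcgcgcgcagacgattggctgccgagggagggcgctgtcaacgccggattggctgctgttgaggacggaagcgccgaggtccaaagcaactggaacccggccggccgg

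Of the 34 listed genes most were modestly higher after CNC, and no member was called lower. With p-values of edgeR's quasi-likelihood F test adjusted over all 15019 tested genes (Benjamini-Hochberg, threshold 0.05), 21 of the 34 members rose and 0 fell, while 13 did not pass. Over all tested genes, 24.6% were called, 13.2% as higher and 11.4% as lower. The median log2 fold change of the members was 0.14, against -0.0026 over all tested genes, and 31 of the 34 values were positive. In 12 members every CNC rat lay above every air rat, whereas the groups did not overlap in this direction in 6.82% of all tested genes. In the opposite direction it was 0 members and 4.7% of all tested genes. The rises were small: Sdf2l1 at 1.92-fold and Sec61b at 1.28-fold were the 2 that rose by at least 25%.

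Counts of the 34 genes together made up 0.624 to 0.657% of each air library and 0.674 to 0.742% of each CNC library, so these shares did not overlap. Summed by role, the disulfide genes ran from 1470.4 to 1543 CPM in air and from 1666 to 1848 CPM in CNC, the translocon genes from 596 to 619.5 CPM in air and from 651 to 689.9 CPM in CNC and the degradation genes from 786 to 827 CPM in air and from 835 to 872 CPM in CNC, none of which overlapped. The chaperone sums, from 2848 to 3104 CPM in air and from 3057 to 3549.9 CPM in CNC, overlapped, as did those of the sensor group. Total counts ran from 8693259 to 16603697 per library. Genes of the circadian clock also differed between the groups, since 7 of 13 tested clock genes were higher and 5 lower in CNC, and a score built from them did not overlap between the groups. With that score in the design, 6 members were called higher and 0 lower (Sdf2l1, Dnajc3, Calr, P4hb, Pdia6 and Ostc), with 3.95% of all genes called. The standard errors of the members then grew by a median factor of 2.06. The median log2 fold change of the members was 0.21 in that fit, against 0.14 without the score. The sign changed in 2 of the 34 members, with Herpud1 at -0.226 and Syvn1 at -0.0502. Since the score did not overlap between the groups, that fit cannot tell the clock from CNC. The part of the clock in these results was not tested further.

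**Figure D1:**
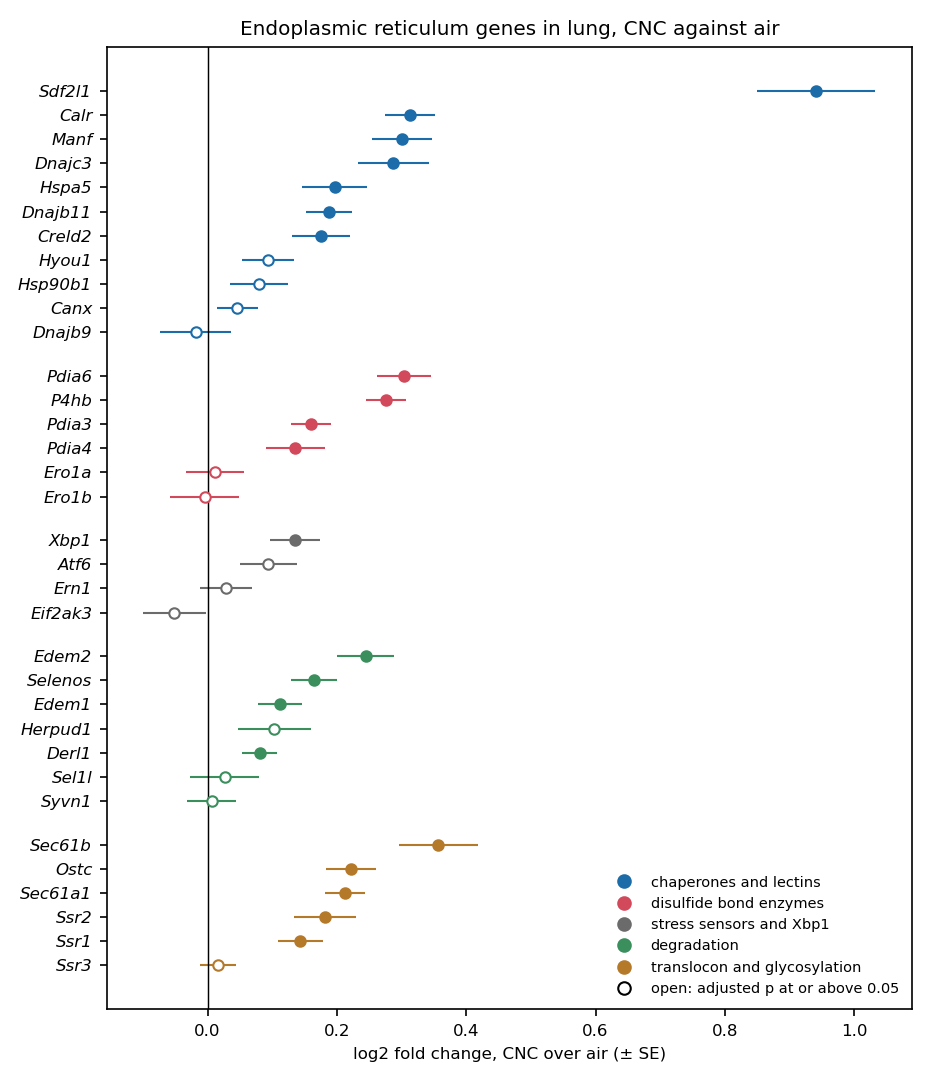
Log2 fold change of each of the 34 members, CNC over air, with its standard error, grouped by role; filled points passed edgeR's test at an adjusted p of 0.05. All 21 filled points lie to the right of 0, and Sdf2l1 stands apart at 0.94.

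Among the chaperones and lectins, 7 of 11 rose, 0 fell and 4 did not pass, with a median log2 fold change of 0.19. Sdf2l1, a luminal protein that works with the co-chaperone Dnajb11 in keeping clients soluble, ranged from 11.2 to 14.3 CPM in the air rats (median 12.8) and from 20.2 to 27.9 CPM in the CNC rats (median 24.5). All 6 CNC rats were above all air rats, and the rise was 1.92-fold (log2 fold change 0.94 ± 0.09 SE, adjusted p = 3.96e-06 by edgeR). Calr encodes calreticulin, a soluble lectin chaperone that binds calcium and newly glycosylated proteins. Its level ranged from 663 to 734 CPM in the air rats (median 693) and from 797 to 936 CPM in the CNC rats (median 857). The groups did not overlap and Calr rose 1.24-fold (log2 fold change 0.31 ± 0.04 SE, adjusted p = 3.68e-05 by edgeR). Manf, a small cofactor of BiP that can also be secreted, ranged from 45.2 to 55.8 CPM in the air rats (median 53) and from 61.7 to 65.8 CPM in the CNC rats (median 62.9). Its groups did not overlap either, and it rose 1.23-fold (log2 fold change 0.30 ± 0.05 SE, adjusted p = 0.000207 by edgeR).

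Hspa5, which encodes the central ER chaperone BiP, ranged from 452 to 534 CPM in the air rats (median 476) and from 515 to 608 CPM in the CNC rats (median 539). Here 3 of 6 CNC rats exceeded the highest air rat, air replicate 6, and the rise was 1.15-fold (log2 fold change 0.20 ± 0.05 SE, adjusted p = 0.00896 by edgeR). The J-domain co-chaperones that hand clients to BiP did not move alike: Dnajb11 (ERdj3) rose 1.14-fold with no overlap (adjusted p = 0.00117 by edgeR), and Dnajc3 (p58IPK) rose 1.22-fold with 5 of 6 CNC rats above all air rats (adjusted p = 0.00124). Dnajb9 (ERdj4), a BiP co-chaperone that also restrains Ern1, had a log2 fold change of -0.02 ± 0.06 SE (adjusted p = 0.855 by edgeR), with 2 of 6 CNC rats above the air median. Creld2, a luminal protein known as an ER stress target, rose 1.13-fold, with 5 of 6 CNC rats above all air rats (adjusted p = 0.0102 by edgeR). Dropping air replicates 4 and 5 at once ended the Creld2 call (adjusted p = 0.0515 by edgeR).

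Other abundant chaperones did not pass the test. Hsp90b1 (GRP94), the ER member of the Hsp90 family, had a log2 fold change of 0.08 ± 0.05 SE (adjusted p = 0.228 by edgeR), and Hyou1, which recharges BiP with nucleotide, of 0.09 ± 0.04 SE (adjusted p = 0.104 by edgeR). Canx, the membrane-bound lectin chaperone calnexin, had 0.05 ± 0.03 SE (adjusted p = 0.326 by edgeR). The result for Hyou1 turned on CNC replicate 6, its lowest CNC value at 149 CPM: without that rat Hyou1 was called higher (adjusted p = 0.0299 by edgeR), as it was with CNC replicates 3 and 6 both left out (adjusted p = 0.0467).

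**Figure D2:**
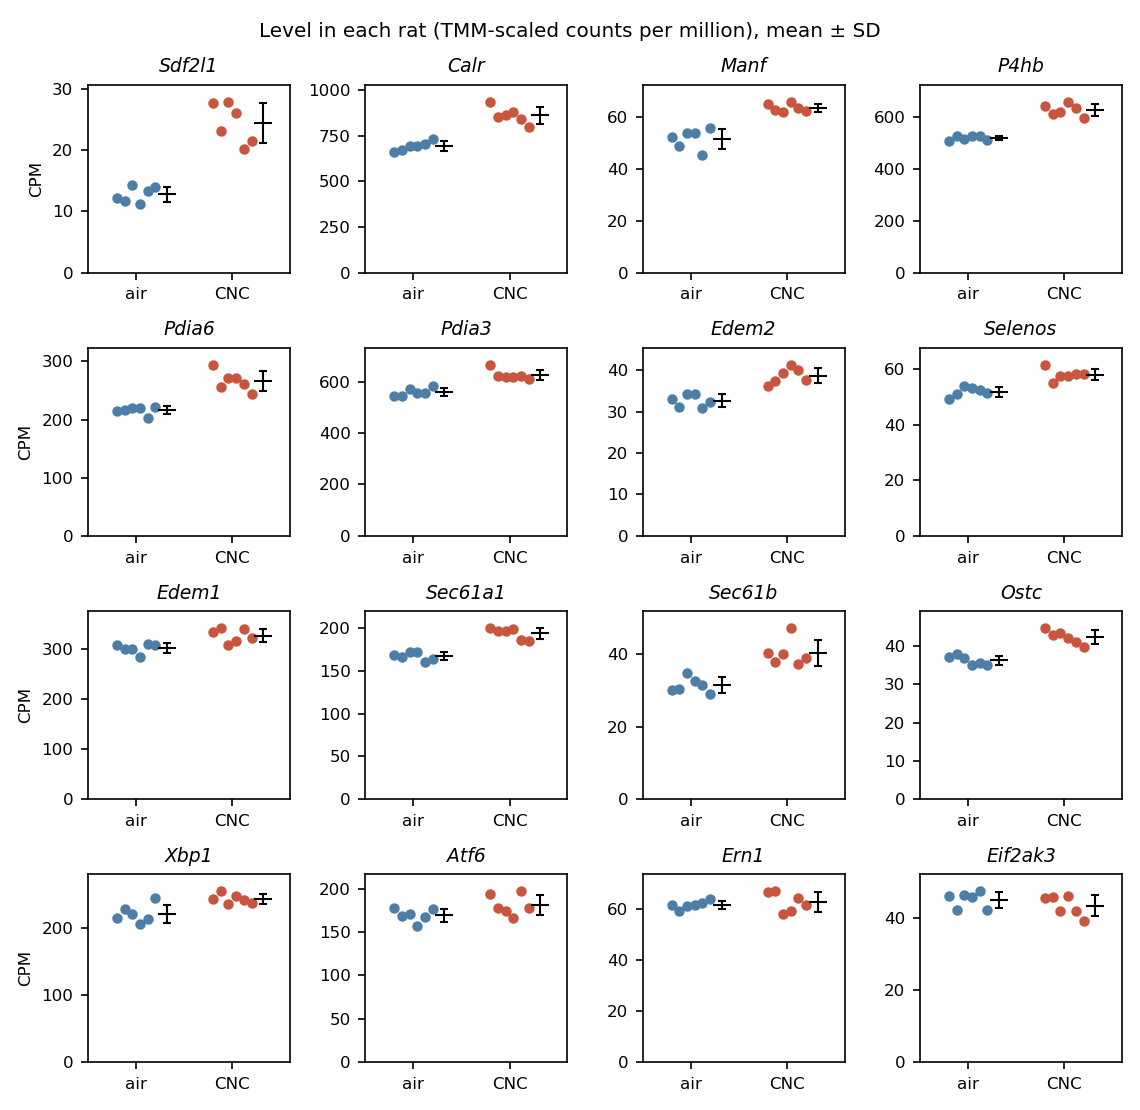
TMM-scaled CPM in each of the 12 rats for the 3 members of smallest adjusted p in each of 4 role groups and for the 4 stress genes in the bottom row, with mean ± SD in black. In 11 of the upper 12 panels all CNC points lie above all air points, Edem1 being the exception, while in the bottom row the groups overlap.

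Of the genes for disulfide bonds, the 4 isomerases rose and the 2 oxidases did not pass. P4hb, the classic protein disulfide isomerase, ranged from 506 to 527 CPM in the air rats (median 519) and from 596 to 658 CPM in the CNC rats (median 627). The groups did not overlap, and P4hb rose 1.21-fold (log2 fold change 0.28 ± 0.03 SE, adjusted p = 1.3e-05 by edgeR). Pdia6, another isomerase of the lumen, ranged from 202 to 222 CPM in the air rats (median 218) and from 243 to 294 CPM in the CNC rats (median 266). Every CNC rat exceeded every air rat, with a rise of 1.23-fold (log2 fold change 0.30 ± 0.04 SE, adjusted p = 7.81e-05 by edgeR). Pdia3 (ERp57), the isomerase that works with calreticulin and calnexin, ranged from 543 to 584 CPM in the air rats (median 557) and from 611 to 665 CPM in the CNC rats (median 619). Its groups did not overlap, CNC replicate 1 was well above the other CNC rats, and the rise was 1.12-fold (log2 fold change 0.16 ± 0.03 SE, adjusted p = 0.0014 by edgeR).

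Pdia4 (ERp72) rose 1.1-fold (adjusted p = 0.0383 by edgeR), and 2 of 6 CNC rats exceeded all air rats. That call was lost on leaving out air replicate 1, 2, 3 or 4 or CNC replicate 1 or 2 in turn (adjusted p from 0.0541 to 0.0794), with other scalings (upper quartile 0.0565, library size 0.0707) and with air replicates 4 and 5 both left out (adjusted p = 0.0772, all by edgeR). Ero1a and Ero1b encode the oxidases that recharge the isomerases. Their log2 fold changes were 0.01 ± 0.05 SE (adjusted p = 0.895 by edgeR) and -0.0042 ± 0.05 SE (adjusted p = 0.983 by edgeR), and the sign of Ero1a was negative with upper-quartile scaling (-0.00163) or library size alone (-0.0113).

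Of the 4 genes of the stress sensor group, Xbp1 rose, and the sensors Atf6, Ern1 and Eif2ak3 did not pass the test. Atf6, a membrane-bound transcription factor that is cut free under stress, ranged from 157 to 177 CPM in the air rats (median 169.8) and from 167 to 197 CPM in the CNC rats (median 177). The groups overlapped, and the log2 fold change was 0.09 ± 0.04 SE (adjusted p = 0.141 by edgeR). Ern1, the kinase and nuclease that splices the Xbp1 message, ranged from 59.3 to 63.9 CPM in the air rats (median 61.7) and from 58.1 to 67.1 CPM in the CNC rats (median 63.2). CNC rats lay both above and below the air range, with a log2 fold change of 0.03 ± 0.04 SE (adjusted p = 0.673 by edgeR). Eif2ak3, the kinase that slows protein synthesis, ranged from 42.3 to 47.4 CPM in the air rats (median 46) and from 39.3 to 46.2 CPM in the CNC rats (median 43.9). It was the member with the most negative value, -0.05 ± 0.05 SE (adjusted p = 0.49 by edgeR), and 1 of 6 CNC rats was above the air median.

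Xbp1, the transcription factor downstream of Ern1, ranged from 206 to 244 CPM in the air rats (median 218) and from 235 to 254 CPM in the CNC rats (median 242). All CNC rats exceeded the air median but 2 of 6 exceeded the highest air rat, and Xbp1 rose 1.1-fold (log2 fold change 0.14 ± 0.04 SE, adjusted p = 0.0185 by edgeR). Dropping air replicates 4 and 5 at once ended the Xbp1 call (adjusted p = 0.0899 by edgeR). Counts per symbol do not separate the spliced from the unspliced Xbp1 message, and activation of the sensors by cleavage or phosphorylation is not measured by RNA counts.

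In the degradation group, 4 of 7 tested genes rose, 0 fell and 3 did not pass, with a median log2 fold change of 0.10. Edem2, which starts the trimming of mannose that marks a glycoprotein for disposal, ranged from 30.9 to 34.3 CPM in the air rats (median 32.6) and from 36.2 to 41.3 CPM in the CNC rats (median 38.5). Its groups did not overlap, and it rose 1.18-fold (log2 fold change 0.24 ± 0.04 SE, adjusted p = 0.000856 by edgeR). Selenos, a selenoprotein of the retrotranslocation complex, ranged from 49.2 to 54.1 CPM in the air rats (median 52) and from 55.2 to 61.7 CPM in the CNC rats (median 58). There was again no overlap, with a rise of 1.12-fold (log2 fold change 0.16 ± 0.04 SE, adjusted p = 0.00329 by edgeR). Edem1, which passes trimmed glycoproteins on to degradation, ranged from 285 to 311 CPM in the air rats (median 305) and from 309 to 342 CPM in the CNC rats (median 328). The groups overlapped slightly, 5 of 6 CNC rats being above all air rats, and Edem1 rose 1.08-fold (log2 fold change 0.11 ± 0.03 SE, adjusted p = 0.0251 by edgeR). The Edem1 call was lost without air replicate 2, CNC replicate 2 or CNC replicate 5 in turn (adjusted p from 0.0505 to 0.0621), with library size alone (adjusted p = 0.0586) and with air replicates 4 and 5 both left out (adjusted p = 0.0681, all by edgeR).

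Derl1, a membrane protein of the retrotranslocation channel, rose 1.06-fold, the smallest called change (adjusted p = 0.0429 by edgeR). That call was lost without air replicate 1, 2, 3 or 5 or CNC replicate 1, 2, 3, 4 or 6 in turn (adjusted p from 0.0554 to 0.081). It was also lost with the DESeq2 Wald test (adjusted p = 0.066), robust edgeR (0.0551), no count filter (0.075), upper-quartile scaling (0.0847) and library size alone (0.154). Leaving out air replicates 4 and 5 together (0.114) or CNC replicates 3 and 6 together (adjusted p = 0.164, by edgeR) ended it as well. The ubiquitin ligase at the centre of ER-associated degradation, Syvn1 (Hrd1), had a log2 fold change of 0.01 ± 0.04 SE (adjusted p = 0.934 by edgeR) and its adapter Sel1l of 0.03 ± 0.05 SE (adjusted p = 0.772 by edgeR). Syvn1 was at -0.0066 with upper-quartile scaling and -0.0165 with library size alone. Herpud1, a stress-induced scaffold of the same complex, had 0.10 ± 0.06 SE (adjusted p = 0.206 by edgeR). Its highest air value, 94.3 CPM, was air replicate 4, and without that rat Herpud1 was called higher (adjusted p = 0.0471 by edgeR), as it was with air replicates 4 and 5 both left out (adjusted p = 0.0159). With the clock score in the design, Herpud1 changed sign to -0.226 and was not called (adjusted p = 0.075 by edgeR).

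At the translocon, where nascent chains enter the ER and are glycosylated, 5 of 6 genes rose and 1 did not pass, with a median log2 fold change of 0.20. Sec61a1, the pore of the channel, ranged from 161 to 173 CPM in the air rats (median 168) and from 186 to 200.4 CPM in the CNC rats (median 197). The groups did not overlap, and Sec61a1 rose 1.16-fold (log2 fold change 0.21 ± 0.03 SE, adjusted p = 0.000138 by edgeR). Sec61b, a small subunit of the same channel, ranged from 29 to 35 CPM in the air rats (median 31.1) and from 37.3 to 47.3 CPM in the CNC rats (median 39.6). All CNC rats were above all air rats, CNC replicate 4 being the highest, and Sec61b rose 1.28-fold (log2 fold change 0.36 ± 0.06 SE, adjusted p = 0.000525 by edgeR). Ostc, a subunit of the oligosaccharyltransferase that attaches N-glycans, ranged from 35.1 to 37.8 CPM in the air rats (median 36.2) and from 39.8 to 44.7 CPM in the CNC rats (median 42.5). Again the groups did not overlap, and the rise was 1.17-fold (log2 fold change 0.22 ± 0.04 SE, adjusted p = 0.000655 by edgeR). Of the translocon-associated (TRAP) subunits, Ssr1 rose 1.1-fold (adjusted p = 0.00629 by edgeR) and Ssr2 1.13-fold (adjusted p = 0.0115), while Ssr3 had a log2 fold change of 0.02 ± 0.03 SE (adjusted p = 0.73 by edgeR), which was -0.00642 with library size alone. The Ssr2 call did not hold once air replicates 4 and 5 were both left out (adjusted p = 0.0614 by edgeR).

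**Figure D3:**
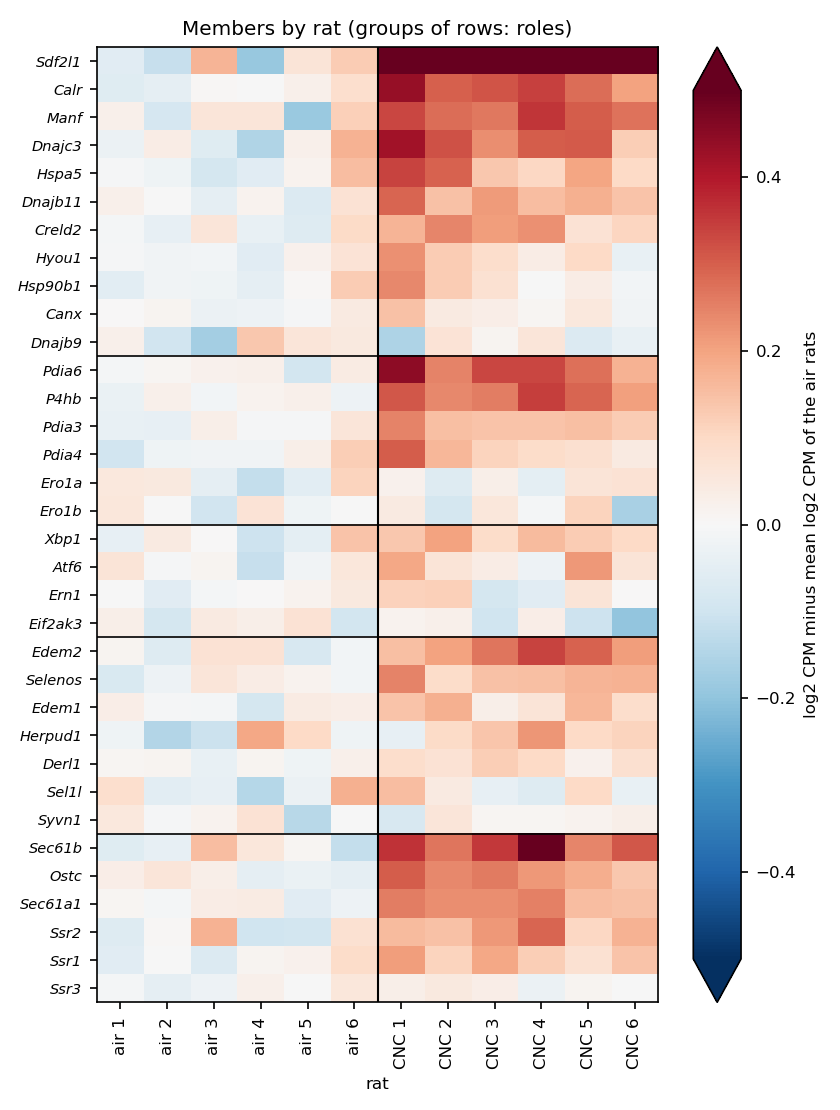
Log2 CPM of the 34 members (rows, by role) in the 12 rats (columns), as the difference from the mean of the air rats; the colour scale ends at 0.5 in both directions. CNC columns are mostly red, most deeply CNC replicate 1, and air replicate 6 is the reddest air column.

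Rats of the same group differed in their position over the whole list. CNC replicate 1 had the highest value of all 12 rats in 14 of 34 members, and CNC replicate 6 had the lowest value of its group in 15. Air replicate 6 had the highest value of the air group in 19. Air replicate 6 and CNC replicate 6 were also the libraries with the fewest counts of their groups (8693259 and 9917387). The part of depth in this position was not tested. Leaving out air replicate 6 or CNC replicate 6 left 21 members called higher in each case, and leaving out CNC replicate 1 left 19. Without CNC replicate 6 the 21 were not all the same genes, as Hyou1 was gained and Derl1 lost.

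Because members work as partners, the ratio of their counts within a library was compared for 8 pairs, chosen after the fold changes had been seen. Such a ratio does not depend on how libraries are scaled, though its absolute size also reflects transcript length, so only its difference between groups was read. Since the choice followed the fold changes, the ratios are a description and no test is given.

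The ratio of the soluble to the membrane-bound lectin chaperone, Calr/Canx, ran from 0.941 to 1.01 in air and from 1.14 to 1.24 in CNC, with no overlap (1.2-fold). Hspa5/Hsp90b1, the ratio of BiP to GRP94, ran from 0.731 to 0.791 in air and from 0.798 to 0.861 in CNC, a smaller shift without overlap (1.08-fold). The largest shift was in Sdf2l1/Dnajb11, a pair that forms a complex, from 0.169 to 0.227 in air and from 0.274 to 0.368 in CNC (1.67-fold). In all 3 of these pairs the numerator took a greater part in every CNC rat than in any air rat.

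The isomerase P4hb was also set against both of the oxidases. P4hb/Ero1b ran from 20.3 to 22.8 in air and from 24.4 to 27.7 in CNC with no overlap, and P4hb/Ero1a ran from 12.2 to 14.7 in air and from 14.7 to 17.6 in CNC, where 5 of 6 CNC rats were above all air rats. Within the channel and the TRAP complex the shifts were small and the groups overlapped. Sec61b/Sec61a1 ran from 0.176 to 0.203 in air and from 0.192 to 0.237 in CNC (1.1-fold), and Ssr2/Ssr3 ran from 0.538 to 0.672 in air and from 0.624 to 0.731 in CNC (1.12-fold). Syvn1/Sel1l, the ligase and its adapter, ran from 0.572 to 0.751 in air and from 0.551 to 0.682 in CNC, with overlap.

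**Figure D4:**
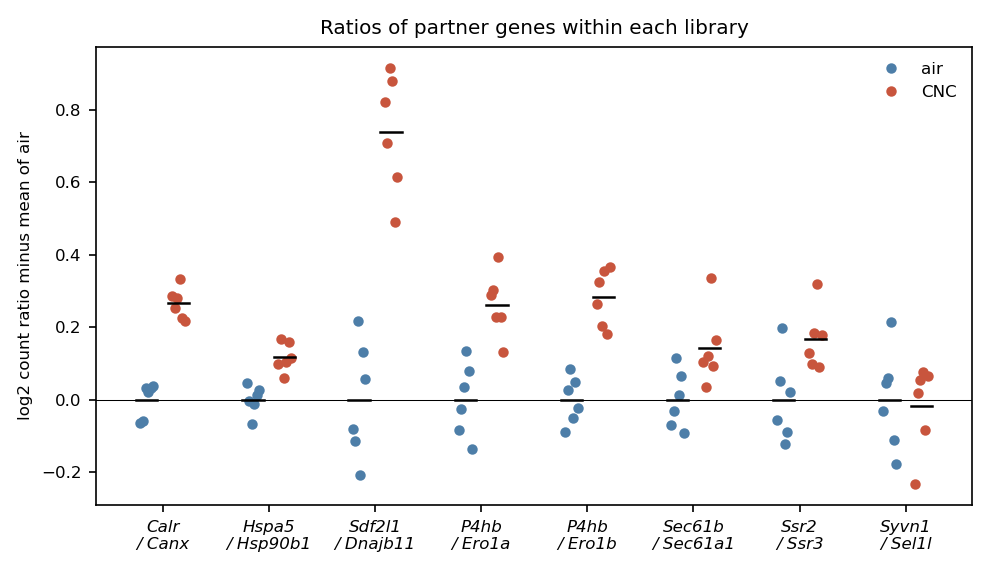
Log2 ratio of the counts of partner genes within each library, minus the mean of the 6 air rats, for 8 pairs; points are rats and black bars are group means. The CNC points of Sdf2l1/Dnajb11 average 0.74 above air, and those of Syvn1/Sel1l sit around 0.

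Of 11 tested members with an ERSE or ERSE-II in the window, 6 rose and 5 did not pass, with a median log2 fold change of 0.14. Of 15 with neither, 10 rose and 5 did not pass, with a median of 0.14 as well. Hspa5, Dnajc3, Creld2, Calr, Xbp1 and Dnajb11 are the 6 that rose, and Hsp90b1, Canx, Ero1b, Hyou1 and Herpud1 the 5 that did not pass. A match in the letters is a description and does not show that a factor binds there. Variants of the fixed letters were not searched, so a window counted as having neither form may hold one. Of 8 members with no window, 5 rose and 3 did not pass.

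To place the members among related genes, 5 wider lists of 170 genes were read from the same fit, of which 163 were tested. In these lists 40 rose and 6 fell (24.5% higher, and 28.2% called in either direction, against 13.2% and 24.6% over all tested genes), with a median log2 fold change of 0.06. Of the called genes named below from these lists, Qsox1 and Ddost kept their call with the clock score in the design. The others lost it, among them Sel1l3 (adjusted p = 0.165), Derl3 (0.172) and Trib3 (0.474, all by edgeR), and Crebrf also changed sign. Among 40 further translocation and glycosylation genes, 11 rose (27.5%) and 0 fell: Ddost (1.14-fold) and Rpn1 (1.13-fold), both of the oligosaccharyltransferase, the TRAP subunit Ssr4 (1.22-fold) and the signal peptidase subunit Sec11c (1.23-fold) had the smallest adjusted p (5.75e-05 to 0.00129 by edgeR). Of 32 genes of ER exit and retrieval, 9 rose (28.1%) and 0 fell, including the cargo receptors Lman2 (1.12-fold), Tmed2 (1.1-fold), Tmed3 (1.13-fold) and Tmed9 (1.12-fold), with adjusted p from 0.000873 to 0.00647 by edgeR. The receptors that return escaped chaperones differed in result, Kdelr3 rising 1.18-fold (adjusted p = 0.0165 by edgeR) and Kdelr2 having a log2 fold change of 0.04 ± 0.04 SE (adjusted p = 0.524 by edgeR).

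Of 34 tested further folding genes, 9 rose and 3 fell (26.5% higher and 35.3% called, against 13.2% and 24.6% over all tested genes). Qsox1, a sulfhydryl oxidase of the secretory pathway, rose 1.88-fold, from 46 ± 5.42 to 86.5 ± 7.77 CPM (SD, n = 6 per group), with an edgeR adjusted p of 9.72e-07. Txndc5, a thioredoxin-domain isomerase, rose 1.17-fold, the prolyl isomerase Fkbp11 1.34-fold and Cnpy3, a chaperone of Toll-like receptors, 1.16-fold. The 3 that fell were the prolyl isomerases Fkbp9 (1.11-fold lower) and Fkbp14 (1.21-fold lower) and Cnpy4 (1.15-fold lower), whose call did not hold with CNC replicates 3 and 6 both left out (adjusted p = 0.0594 by edgeR). Of 34 further degradation genes, 5 rose and 2 fell, so that 14.7% were higher and 20.6% called in either direction, near the 13.2% and 24.6% of all tested genes. Sel1l3, a relative of Sel1l, rose 2.13-fold (adjusted p = 5.22e-05 by edgeR) and Derl3 1.56-fold (adjusted p = 0.00292), while the co-chaperone Dnajb2 was 1.1-fold lower (adjusted p = 0.0108). The other 3 that rose were Vcp, the ATPase that extracts proteins from the membrane (1.07-fold), its binding partner Ubxn4 (1.08-fold) and the ligase Rnf5 (1.11-fold). These were named after their values were seen, as were the 3 folding genes that fell. The Vcp call was lost on leaving out air replicate 3, 5 or 6 or CNC replicate 1 or 2 (adjusted p from 0.0526 to 0.0629), the Ubxn4 call on leaving out air replicate 1, 2, 4 or 5 or CNC replicate 1, 2, 4 or 5 (adjusted p from 0.0635 to 0.0992) and the Rnf5 call on leaving out air replicate 1, 2, 5 or 6 or CNC replicate 2 or 4 (adjusted p from 0.0668 to 0.0935, all by edgeR). None of these 3 calls held with library size alone (adjusted p = 0.0951, 0.0902 and 0.0795).

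In the stress signalling list, 6 of 23 tested genes rose and 1 fell (26.1% higher and 30.4% called, against 13.2% and 24.6% over all tested genes). The 1 that fell was Crebrf, a regulator that restrains Creb3 (1.08-fold lower, named after its value was seen). The Crebrf call was lost on leaving out air replicate 1, 2, 3, 5 or 6 or CNC replicate 1, 2, 3, 4, 5 or 6 (adjusted p from 0.0534 to 0.0985 by edgeR). Trib3, a pseudokinase induced under stress, rose 1.53-fold (adjusted p = 0.000292 by edgeR), the transcription factor Atf3 1.249-fold, Ppp1r15a (GADD34), which restores translation, 1.11-fold and Eif2s1, the factor that Eif2ak3 phosphorylates, 1.11-fold. The last 3 of these calls were near the threshold and were each lost when any of several rats was left out. The Atf3 call was lost without air replicate 1 or CNC replicate 4 or 5 (adjusted p from 0.0525 to 0.0539), and the Eif2s1 call without air replicate 1 or 2 or CNC replicate 2 or 5 (adjusted p from 0.0553 to 0.0644, by edgeR). The Ppp1r15a call was lost without air replicate 2, 5 or 6 or CNC replicate 4 or 5 (adjusted p from 0.0502 to 0.0838, by edgeR). With library size alone both Eif2s1 (adjusted p = 0.0531) and Ppp1r15a (adjusted p = 0.0569) missed the threshold. Atf4, the main effector of the Eif2ak3 branch, had 0.11 ± 0.05 SE (adjusted p = 0.16 by edgeR) and was called higher when CNC replicate 5 was left out (adjusted p = 0.0352). Ddit3 (CHOP), which is tied to prolonged stress, had 0.08 ± 0.08 SE (adjusted p = 0.49 by edgeR).

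**Figure D5:**
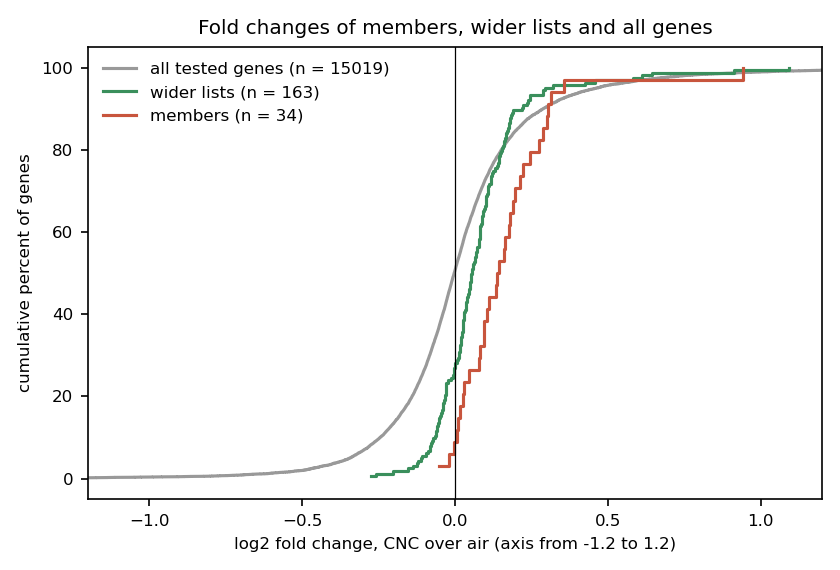
Cumulative percent of genes by log2 fold change for the 34 members, the 163 tested genes of the wider lists and all 15019 tested genes. The member curve lies to the right of the others through most of its length, with medians of 0.14, 0.06 and -0.0026.

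Markers of several cell types moved alongside these genes, and in a bulk tissue sample more cells of a type and more RNA per cell cannot be told apart. Alveolar type 2 cell markers summed from 23825 to 31108 CPM in air and from 31752 to 38889 CPM in CNC, with 9 of 11 higher and 0 lower. Sftpc (mean 10230 CPM in air and 13413 in CNC) and Sftpa1 (6941 and 10705) carried much of that rise. Sftpb (adjusted p = 0.964) and Etv5 (0.917, by edgeR) were not called. Macrophage markers summed from 1182 to 1505 CPM in air and from 2425 to 3407 CPM in CNC, with 8 of 10 tested higher, and the row of the macrophage receptor Marco held 0 counts in every library. Mrc1 (adjusted p = 0.203) and Siglec1 (0.149, by edgeR) were not called. Much of the rise lay in Gpnmb (mean 558 CPM in air and 1154 in CNC), Chi3l1 (167 and 599) and Lgals3 (246 and 580). Neutrophil markers summed from 175 to 279 CPM in air and from 437 to 699 CPM in CNC, with 5 of 8 higher. Much of that rise lay in S100a9 (mean 73.2 CPM in air and 275 in CNC) and Cd177 (17 and 119). Fcnb (log2 fold change -0.295), Mmp8 (-0.0903) and Csf3r (0.177) were not called. None of these 3 sums overlapped between the groups.

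Endothelial markers summed from 6068 to 7014 CPM in air and from 5093 to 5658 CPM in CNC, with all 10 lower, and fibroblast markers from 2169.8 to 2756 CPM in air and from 1845 to 2087 CPM in CNC, with 5 of 6 tested lower. Markers of airway secretory cells summed from 4938 to 6681 CPM in air and from 4437 to 5654 CPM in CNC, with 2 of 6 tested lower and 0 higher, and the mucin Muc5ac had 4 counts over the air libraries and 14 over the CNC libraries. Most of that sum was Scgb1a1 (mean 5728 CPM in air and 4743 in CNC), which was called lower. Bpifa1, also called lower, had an air median of 3.01 CPM and a highest air value of 65.7 CPM. Plasma cell markers, which share Xbp1, Derl3 and Fkbp11 with the ER lists, summed from 608 to 695 CPM in air and from 685 to 738 CPM in CNC, with 5 of 9 tested higher and 1 lower. The defining plasma cell markers Mzb1 and Tnfrsf17 together summed from 3.96 to 7.94 CPM in air and from 3.01 to 7.02 CPM in CNC, and Jchain was not analysed here. Heart muscle markers summed from 11.9 to 408 CPM in air and from 12.1 to 120.5 CPM in CNC, with 0 of 7 tested called. The part of each of these cell types in the ER results was not tested.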

How the data were processed

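Each library was made from polyadenylated lung RNA of 1 rat with a kit that keeps strand and 12 cycles of amplification, per the labels' protocols. The authors deposited raw counts per gene symbol, whole numbers with no normalization. Tools listed in the submitters' processing notes, with no role stated, include HISAT2 2.1.0 and HTSeq 0.11.2. The table's name holds the build Rnor6. Its annotation and strand setting were not given in the sources used here, so overlapping genes and near-identical copies are uncertain. Rats shared cages of 3, and the test set the difference between groups against the spread between rats. It treated rats as independent, and an effect of cage or chamber was not tested.

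Groups come from the treatment label. The analysis used edgeR 4.0.16 in R 4.3.3: filterByExpr (minimum count 10, minimum total 15), TMM scaling, then glmQLFit and glmQLFTest of CNC against air. CPM are TMM-scaled, and a standard error is the size of the log2 fold change over the square root of F. The biological coefficient of variation was 8.05%. Chi-square per degree of freedom between libraries of a group ran from 2.69 to 8.36, so none repeats another. Amplified reads are not independent molecules. The procedure was tested on simulated data with planted changes of 1.25-fold or more, so smaller changes, as in most called members, were not covered. Other scalings, filters, tests (DESeq2 1.42.0, limma 3.58.1), a clock gene covariate and left-out rats were tried. Symbols, synonyms and promoters come from RefSeq tables of GRCr8, another build than that of the counts. Figures were drawn with matplotlib 3.10.9.

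The members, lists, tests and settings were chosen with earlier results of these data known. All members are named. Values by rat are given for the 3 members of smallest adjusted p per role and the 4 stress genes. From each wider list the 4 called genes of smallest adjusted p are named, with Atf4, Ddit3, Kdelr2, Kdelr3 and Derl3, except 1 gene that is not reported here.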

Additional observations from a re-analysis of the deposited data

Results flagged for a closer look

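Over 136 sets, each a named gene in a group of 6 rats, the highest or lowest rat was compared with the rest by Dixon's gap ratio, which chance alone exceeds in about 1 in 20 sets. It did so in 5. Hsp90b1 in air replicate 6 stood at 684 CPM, above the other air rats at 605 to 629.7 CPM. Pdia3 in CNC replicate 1 stood at 665 CPM, above the other CNC rats at 611 to 621 CPM. Sec61b in CNC replicate 4 stood at 47.3 CPM, above the other CNC rats at 37.3 to 40.4 CPM. Txndc5 in CNC replicate 6 stood at 174 CPM, below the other CNC rats at 182 to 185 CPM. Zfand2a, a proteasome-associated stress gene, stood at 37.5 CPM in air replicate 2, above the other air rats at 34.8 to 35.6 CPM. Without the rat in question, the log2 fold changes were 0.14 for Pdia3, 0.30 for Sec61b, 0.24 for Txndc5 and 0.34 for Zfand2a, all still called, and 0.11 for Hsp90b1, which was not called (adjusted p = 0.0963 by edgeR).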

How the results depend on the processing

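No paired analysis was possible because the labels give the groups no shared rat numbers. Higher members numbered 18 to 21 and lower members 0 when each rat was left out in turn, and the median log2 fold change ran from 0.13 to 0.16. Other scalings, filters and tests, and air replicates 4 and 5 or CNC replicates 3 and 6 left out, gave 16 to 21 higher members and 0 lower. With the clock gene score in the design, 6 members were higher, and 377 and 216 of all genes were higher and lower. Of 21 member calls, 15 were then lost (edgeR's adjusted p from 0.061 to 0.549), and the cause was not tested, though standard errors also grew. Requiring a change of at least 25% left 2 members, and 942 and 506 of all genes. A threshold of 0.01 left 15 members, and 1244 and 902 of all genes. Signs changed for 7 members, for Kdelr2, for Crebrf and for the Syvn1 over Sel1l ratio. Ero1a was at -0.00163 (upper-quartile scaling), -0.0113 (library size alone), -0.00765 (voom with quality weights), -0.0340 (air 4 and 5 out), -0.0128 (CNC 3 and 6 out), -0.0107 to 0.0330 (a rat left out in turn). Syvn1 was at -0.00660 (upper-quartile scaling), -0.0165 (library size alone), -0.0502 (clock covariate), -0.0120 (air 4 and 5 out), -0.00457 (CNC 3 and 6 out), -0.0163 to 0.0260 (a rat left out in turn). Ssr3 was at -0.00642 (library size alone). Dnajb9 was at 0.00786 (voom with quality weights), 0.0285 (air 4 and 5 out), -0.0484 to 0.0121 (a rat left out in turn). Herpud1 was at -0.226 (clock covariate). Kdelr2 was at -0.0720 (clock covariate). Crebrf was at 0.0399 (clock covariate). Ero1b was at 0.00297 (air 4 and 5 out), 0.00933 (CNC 3 and 6 out), -0.0237 to 0.0257 (a rat left out in turn). Sel1l was at -0.0182 (air 4 and 5 out). Syvn1 over Sel1l was at -0.0535 to 0.0255 (a rat left out in turn). Apart from the clock score, the changed values of single genes lay within 0.034 of 0. The smallest member difference called, at this depth and with 6 rats per group, was 1.06-fold (Derl1).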

Other observations

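Outside the ER list, 27 further genes carried an ERSE or ERSE-II in the RefSeq promoter window, of which 16 were tested. Of the 16, 4 rose and 0 fell, where 13.2% of all tested genes rose. They were Derl3, a degradation factor (1.56-fold), Rcl1, of ribosome assembly (1.45-fold), the phosphatase gene Ppm1l (1.29-fold) and Zfand2a, a proteasome-associated stress protein (1.246-fold), named after their values were seen. With the clock score in the design, Rcl1 and Ppm1l stayed called, and Derl3 (adjusted p = 0.172) and Zfand2a (0.116, both by edgeR) did not. Member windows had a median GC content of 63% against 51.7% over all windows.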
